A study of Homo sapiens with 6 samples.

Results

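AP-1 is a family of dimeric transcription factors built from the FOS proteins (FOS, FOSB, FOSL1 and FOSL2) and the JUN proteins (JUN, JUNB and JUND). These 7 genes were described here with EGR1, IER3 and KLF6, which are also induced early after stimulation of cells. The 10 genes were taken by symbol, with earlier results of these data known, and all 10 were found among the 32299 genes of the deposited table. All 10 also passed the filter on low counts that left 17927 genes to be tested. The data are 6 poly(A) RNA sequencing libraries of the human glioblastoma cell line U87, with total counts of 58229083 to 65512119. By their labels, 3 libraries came from U87 cells overexpressing tau, the microtubule-binding protein encoded by MAPT, and 3 from U87 cells transfected with a control vector. They are called tau-labelled and control-labelled. The promoter of the tau construct, the time after transfection, the serum in the medium and whether cells were pooled or cloned were not given in the sources used here. No source says whether the 3 libraries of a group are separate cultures, and p-values reflect only how these libraries vary, which may be technical variation.

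Values of the 3 libraries of a group are given in the order of replicates 1 to 3. MAPT ran against the labels. It stood at 0.147, 0.156 and 0.165 FPKM (fragments scaled by gene length and library size) in the tau-labelled libraries, against 0.268, 0.399 and 0.333 FPKM in the control-labelled libraries. Its log2 fold change was -1.20 (SE 0.21; edgeR's quasi-likelihood test, Benjamini-Hochberg adjusted p = 0.00151). Every direction below is that of the libraries labelled tau relative to the libraries labelled control, and exchanged labels would reverse all of them. Whether the labels were exchanged, or whether reads of the tau construct were counted under MAPT, was not tested. Of 7 markers of glioma or mesenchymal cells, including VIM, CD44 and NES, all were above 1 FPKM in at least 1 library. The 4 neuronal markers in the table were below 1 FPKM in all 6. Markers of microglia and macrophages (CSF1R and CD14 above 1 FPKM, 1 of 4 at 0 in all libraries) summed to 1.23 to 1.57 FPKM in the tau-labelled and 6.55 to 7.05 FPKM in the control-labelled libraries. Those of epithelial cells (KRT8 alone above 1 FPKM of 6) summed to 1.20 to 1.72 FPKM in the tau-labelled and 6.45 to 7.34 FPKM in the control-labelled libraries. Those of endothelial cells (PECAM1 alone of 4) summed to 0.409 to 0.449 FPKM in the tau-labelled and 2.36 to 2.74 FPKM in the control-labelled libraries, and those of T cells (CD2 alone of 2) to 0.428 to 0.760 FPKM in the tau-labelled and 4.79 to 7.22 FPKM in the control-labelled libraries. The part of these markers in the results below was not tested.

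FOS and JUN proteins bind DNA as dimers through a basic region and a leucine zipper. JUN proteins pair with each other or with FOS proteins, whereas FOS proteins depend on a partner such as JUN. Growth factors and stress switch on FOS, FOSB, JUN, JUNB and EGR1 through kinases of the ERK, JNK and p38 families and through serum response factor, and their mRNAs are short-lived. FOSL1 and FOSL2 follow later, are themselves targets of AP-1 and are prominent in mesenchymal glioma cells. EGR1 is a zinc finger factor that responds to serum and growth factors, KLF6 is a zinc finger factor of the Krüppel-like family, and IER3 is a small stress-inducible protein that is not a DNA-binding factor.

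Motif matches in the 250 bases upstream of the start differed among these genes. RefSeq (GRCh38.p14) promoter windows were at hand for 8 of the 10 genes, FOSL1 and IER3 being the other two. In the 250 bases before each start, both strands were searched for TGANTCA (the AP-1 element), TGACGTCA (the cAMP response element), TGACGT (its short form, which TGACGTCA contains), TGACATCA (the variant known from JUN), GCGNGGGCG (the EGR1 element), TATAAA (the TATA box) and the CArG box, to which serum response factor binds. Windows are shown for EGR1 and KLF6, which rose in the tau-labelled libraries, JUN, which did not pass, and JUNB and FOSB, which fell. FOSL2, which also fell, and FOS and JUND, which did not pass, were searched but are not shown. A link between matches and direction was not tested. Capitals mark the matches. The windows are chr5:138465229-138465478 on the plus strand for EGR1, chr10:3785210-3785459 on the minus strand for KLF6, chr1:58784048-58784297 on the minus strand for JUN, chr19:12791236-12791485 on the plus strand for JUNB and chr19:45467746-45467995 on the plus strand for FOSB.
EGR1: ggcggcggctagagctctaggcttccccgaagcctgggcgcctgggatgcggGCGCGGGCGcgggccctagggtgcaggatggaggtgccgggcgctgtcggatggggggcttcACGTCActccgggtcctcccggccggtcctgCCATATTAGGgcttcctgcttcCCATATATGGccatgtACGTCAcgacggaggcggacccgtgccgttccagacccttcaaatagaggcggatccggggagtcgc
KLF6: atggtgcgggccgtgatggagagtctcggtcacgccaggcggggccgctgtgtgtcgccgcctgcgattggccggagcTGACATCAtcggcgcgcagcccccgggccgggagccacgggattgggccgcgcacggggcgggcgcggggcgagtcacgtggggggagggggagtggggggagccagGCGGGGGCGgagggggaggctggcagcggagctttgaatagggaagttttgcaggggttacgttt
JUN: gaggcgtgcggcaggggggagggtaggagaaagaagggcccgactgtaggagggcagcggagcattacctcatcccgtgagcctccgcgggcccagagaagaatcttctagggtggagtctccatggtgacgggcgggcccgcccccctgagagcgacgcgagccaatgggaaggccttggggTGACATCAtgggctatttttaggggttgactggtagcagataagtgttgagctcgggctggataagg
JUNB: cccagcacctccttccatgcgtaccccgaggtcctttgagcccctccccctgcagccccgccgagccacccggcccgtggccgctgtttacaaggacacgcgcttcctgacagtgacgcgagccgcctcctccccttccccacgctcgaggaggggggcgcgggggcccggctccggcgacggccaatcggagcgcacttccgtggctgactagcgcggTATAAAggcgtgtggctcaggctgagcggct
FOSB: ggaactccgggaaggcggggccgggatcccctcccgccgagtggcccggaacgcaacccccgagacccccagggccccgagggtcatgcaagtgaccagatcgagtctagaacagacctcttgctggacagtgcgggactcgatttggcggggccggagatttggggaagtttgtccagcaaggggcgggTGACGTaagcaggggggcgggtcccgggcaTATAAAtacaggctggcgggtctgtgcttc

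EGR1 had 2 CArG boxes, at -105 to -96 and -83 to -74 relative to the start, along with short cAMP response elements centred at -133.5 and -64.5. A CArG box occurred in 1.16% of the 35116 RefSeq windows of the same length, and among the 8 genes EGR1 was the only carrier within its window. Sequence further upstream was not searched, so a gene without a match here may carry the motif there. JUN carried the TGACATCA variant at -67 to -60 and KLF6 carried it at -172 to -165, against 2.37% of all windows. KLF6 and EGR1 also matched the EGR1 element, at -65 to -57 and -198 to -190, against 8.41% of all windows. The short cAMP response element was found in 5 of the 8 windows (FOS, FOSB, FOSL2, JUND and EGR1), against 7.10% of all windows, and the full element in JUND alone, against 1.65%. FOS, FOSB and JUNB had a TATA box, against 10.7%, and no window of the 8 held the AP-1 element, which 6.57% of all windows hold. The short cAMP response element stood in genes that rose (EGR1), fell (FOSB and FOSL2) and did not pass (FOS and JUND). These matches describe letters, not sites in use.

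**Figure D1:**
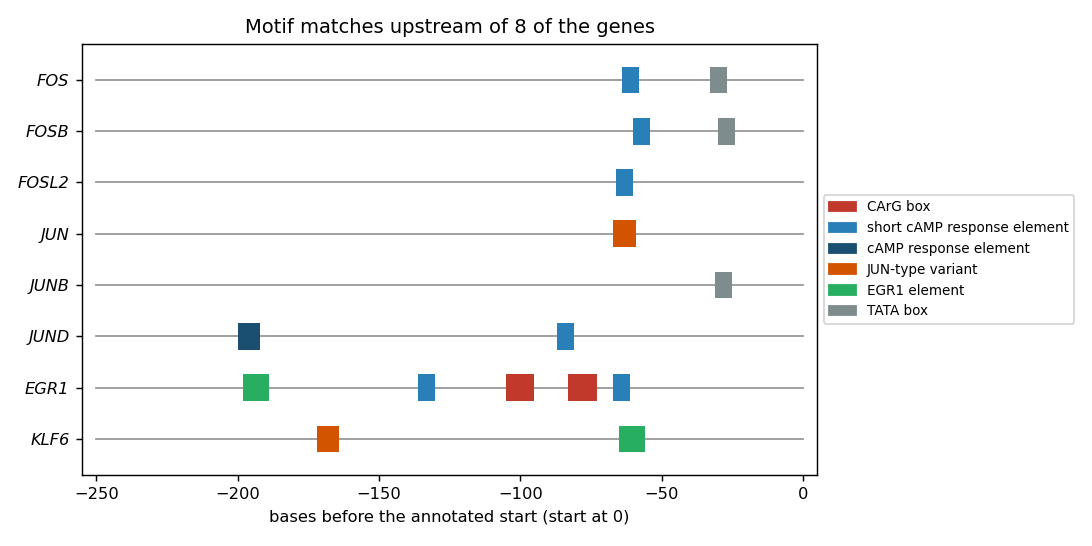
Motif matches in the 250 bases before the annotated start of 8 genes, one line per gene, with position in bases before the start on the x axis and each block 1 match coloured by motif. Red blocks (CArG boxes) appear only on the EGR1 line, orange blocks (TGACATCA) on the JUN and KLF6 lines, and the TATA box lies near -30 in FOS, FOSB and JUNB.

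Among the 10 genes, FOSL1, EGR1 and KLF6 rose in the tau-labelled libraries, FOSB, FOSL2, JUNB and IER3 fell, and FOS, JUN and JUND did not pass the test. Over all genes tested, 21.3% rose and 21.4% fell (edgeR, adjusted p below 0.05), 42.7% in all, so 3 and 4 of 10 stand on a background of widespread change. Of edgeR's calls, 49.9% were rises, and 59.1% when scaled by library size alone. Over the 11129 genes with a mean of at least 1 FPKM, rises made up 63.6% of calls with limma on log2(FPKM + 0.5). EdgeR gave 50.3% over the same genes. FPKM of the groups did not overlap for 8 of the 10 genes, 4 higher and 4 lower, against 56.1% of all genes tested (32.5% higher and 23.6% lower). All genes tested had a median log2 fold change of 0.0044.

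**Figure D2:**
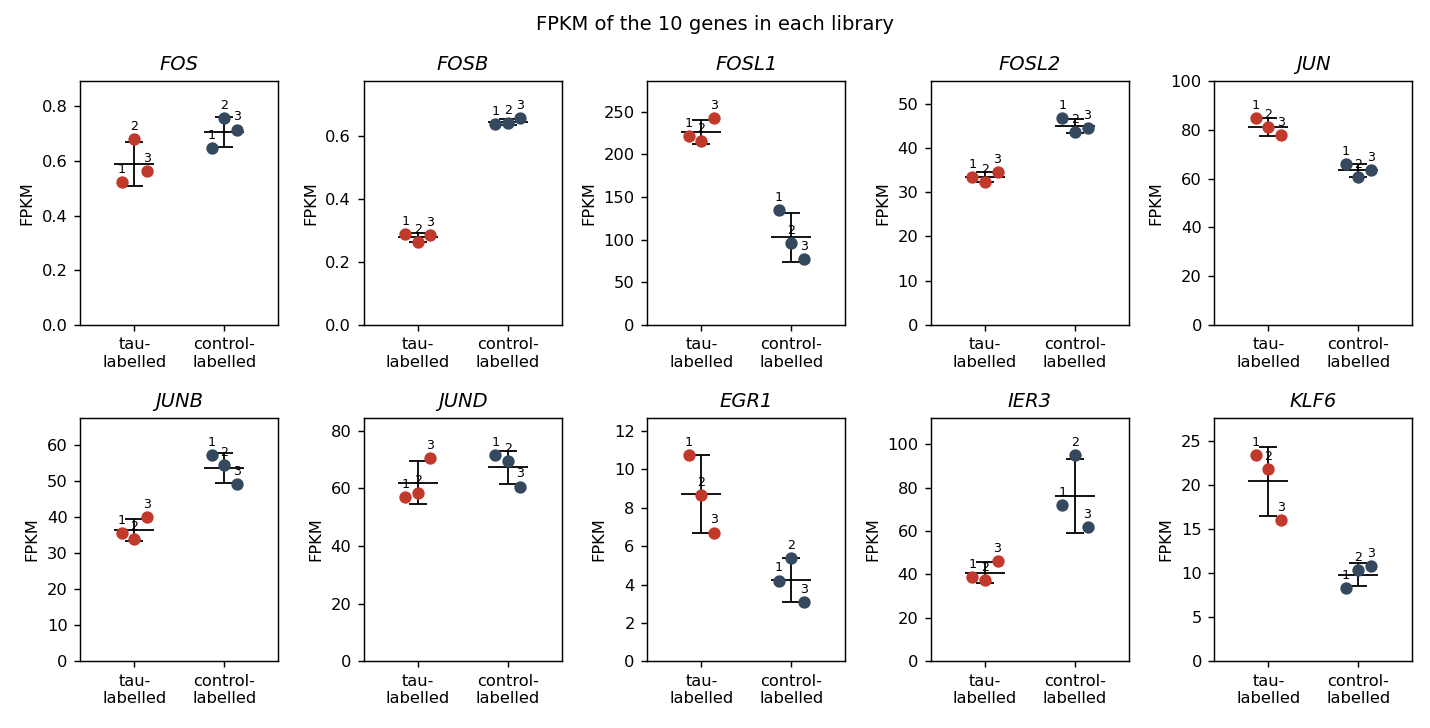
FPKM (y axis, from 0) of each of the 10 genes in the 3 tau-labelled and 3 control-labelled libraries, with points numbered by replicate, a dash for the mean and bars for 1 SD. The groups stand apart in FOSB, FOSL1, FOSL2, JUN, JUNB, EGR1, IER3 and KLF6 and overlap in FOS and JUND.

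FOSL1 encodes FRA1, a FOS protein that lacks the strong activation domain of FOS. The gene (ENSG00000175592, chromosome 11, 65892049 to 65900419, minus strand) was at 221, 215 and 242 FPKM in the tau-labelled libraries, against 134, 95.9 and 77.1 FPKM in the control-labelled libraries. All tau-labelled libraries were above all control-labelled ones, and the control-labelled libraries were spread more widely. FOSL1 rose 2.03-fold by edgeR's fit (log2 fold change 1.02, SE 0.20, adjusted p = 0.00261). With GC content and length offsets FOSL1 stood at 1.49 (adjusted p = 1.8e-05). It was the most abundant of the 10 genes per length in both groups, at percentile 99.5 of the genes tested in the tau-labelled and 98.2 in the control-labelled libraries.

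FOSL2 encodes FRA2, the closest relative of FRA1. FOSL2 (ENSG00000075426, chromosome 2, 28392448 to 28417312, plus strand) had 33.4, 32.3 and 34.5 FPKM in the tau-labelled libraries, against 46.8, 43.7 and 44.6 FPKM in the control-labelled libraries. The libraries of each group lay within a few FPKM of each other and the groups were well separated. FOSL2 fell 1.46-fold (log2 fold change -0.55, SE 0.10, adjusted p = 0.00185), so these related genes changed in opposite directions. FLJ31356, a noncoding gene that overlaps FOSL2 on the opposite strand, was at most 0.250 FPKM in any library. ENSG00000270640, a noncoding gene on the same strand, overlaps FOSL2 by 296 bases, and its level is not given here.

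FOS and FOSB, the classical immediate early members, were barely expressed. FOS (ENSG00000170345, chromosome 14, 75278826 to 75282230, plus strand) had 0.522, 0.680 and 0.564 FPKM in the tau-labelled libraries, against 0.649, 0.756 and 0.715 FPKM in the control-labelled libraries. Tau-labelled library 2 lay above control-labelled library 1, so the groups overlapped. FOS rested on 108, 139 and 128 counts in the tau-labelled libraries, against 143, 157 and 158 counts in the control-labelled libraries. Exact 95% Poisson intervals, which cover counting error only, reached from 88.6 to 130 counts for the lowest library and from 134 to 185 for the highest. They assume independently counted fragments, which was not tested for the deposited counts. The log2 fold change of FOS was -0.38 with a 95% interval of -0.89 to 0.14 (adjusted p = 0.217).

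FOSB (ENSG00000125740, chromosome 19, 45467995 to 45475179, plus strand) had 0.289, 0.262 and 0.284 FPKM in the tau-labelled libraries, against 0.639, 0.642 and 0.657 FPKM in the control-labelled libraries. Spread within a group was small beside the distance between groups. FOSB fell 2.50-fold (log2 fold change -1.32, SE 0.21, adjusted p = 0.000856), the furthest of the 4 genes that fell. FOSB lies whole within the span of ERCC1, a DNA repair gene on the opposite strand that averaged 16.8 ± 1.31 FPKM in the tau-labelled and 19.0 ± 1.35 FPKM in the control-labelled libraries (SD, n = 3 each; log2 fold change -0.30, adjusted p = 0.0747). The strand setting of the counting was not given in the sources used here, and without strand, reads from FOSB and ERCC1 cannot be told apart.

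JUN is the most potent activator of the JUN family and one that stimulates its own promoter. JUN (ENSG00000177606, chromosome 1, 58776845 to 58784048, minus strand) had 84.8, 81.1 and 77.8 FPKM in the tau-labelled libraries, against 65.9, 60.8 and 63.4 FPKM in the control-labelled libraries. All tau-labelled libraries were above all control-labelled ones. The log2 fold change of 0.24, with a 95% interval of 0.03 to 0.45, nevertheless missed the threshold (unadjusted p = 0.0320, adjusted p = 0.0695). JUN passed it with GC content and length offsets, at 0.52 (adjusted p = 0.000477), and in 4 other settings, 3 of which moved the median of all genes by 0.12 to 0.15.

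JUNB, which often restrains JUN and is also induced early, fell. JUNB (ENSG00000171223, chromosome 19, 12791486 to 12793315, plus strand) had 35.6, 34.1 and 40.003 FPKM in the tau-labelled libraries, against 57.3, 54.4 and 49.3 FPKM in the control-labelled libraries. The highest tau-labelled library stayed below the lowest control-labelled one. JUNB fell 1.59-fold (log2 fold change -0.67, SE 0.13, adjusted p = 0.00223), and by 0.25 with GC content and length offsets (adjusted p = 0.0110). GC content was 64.9% in the longest annotated transcript of JUNB, against a median of 48.6% over all genes tested. JUNB lies within the span of HOOK2, a gene on the opposite strand that averaged 2.66 ± 0.407 FPKM in the tau-labelled and 4.42 ± 0.232 FPKM in the control-labelled libraries (SD, n = 3 each) and fell as well (log2 fold change -0.84, adjusted p = 0.00185).

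JUND, the JUN member that is expressed steadily in resting cells, is the third. JUND (ENSG00000130522, chromosome 19, 18279694 to 18281622, minus strand) had 57.0, 58.3 and 70.5 FPKM in the tau-labelled libraries, against 71.5, 69.4 and 60.6 FPKM in the control-labelled libraries. Tau-labelled library 3 reached the level of the control-labelled libraries, and control-labelled library 3 came close to the lower tau-labelled ones. The log2 fold change of JUND was -0.23, with a 95% interval of -0.54 to 0.07 (adjusted p = 0.193). Without tau-labelled library 3 it was called lower (log2 fold change -0.36, adjusted p = 0.0448), and with GC content and length offsets it stood at 0.081 (adjusted p = 0.354). Its longest transcript had the highest GC content of the 10, 69.7%.

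**Figure D3:**
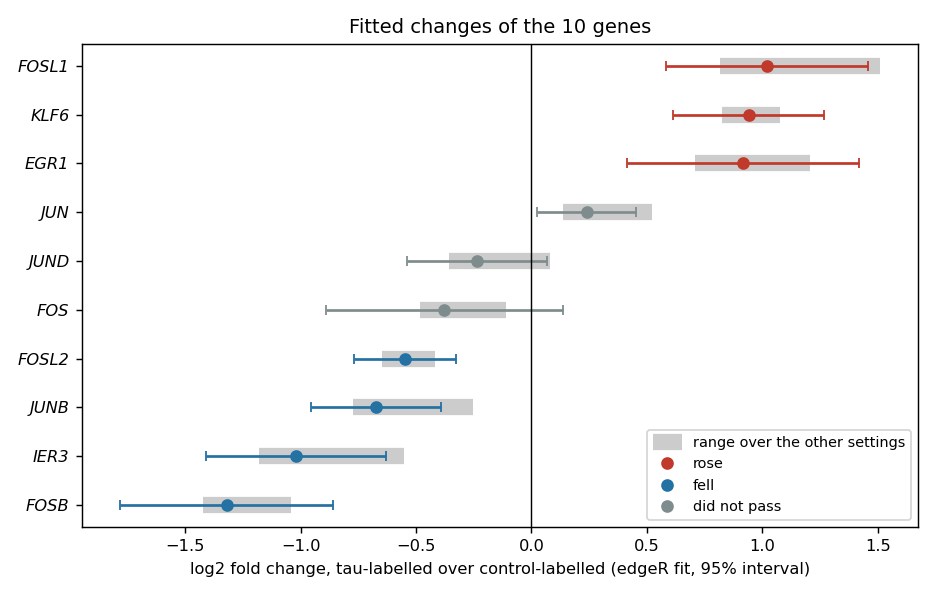
Log2 fold change of each of the 10 genes, tau-labelled over control-labelled, from edgeR's fit (x axis; points, with bars for the 95% interval), with grey bands for the range over the other settings tried. FOSL1, KLF6 and EGR1 lie between 0.92 and 1.02, the intervals of JUND and FOS cross 0, and FOSB, at -1.32, lies furthest to the left.

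The make-up of both families differed between the groups, as measured by each gene's share of the family's summed FPKM. FOSL1 made up 86.6%, 86.6% and 87.3% of the FOS family in the tau-labelled libraries, against 73.6%, 68.0% and 62.6% in the control-labelled libraries. FOSL2 made up the rest almost alone, at 12.8% ± 0.357 in the tau-labelled and 31.0% ± 5.29 in the control-labelled libraries (SD, n = 3 each), and FOS and FOSB together stayed below the share of either. The groups did not overlap for any of the 4 FOS shares (exact two-sided permutation test, p = 0.1 each, the smallest that 3 against 3 allows). Shares of a library add up to the whole, so these are not 4 separate results. A larger FOSL1 share leaves less for the other genes, and FOS itself overlapped between the groups in FPKM. Summed FPKM of the FOS family was 261 ± 15.3 in the tau-labelled and 149 ± 30.3 in the control-labelled libraries (SD, n = 3 each).

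The JUN family had similar summed FPKM, 180 ± 7.67 in the tau-labelled and 184 ± 10.7 in the control-labelled libraries (SD, n = 3 each), and differed in its parts. JUN made up 47.8%, 46.8% and 41.3% of it in the tau-labelled libraries, against 33.8%, 32.9% and 36.6% in the control-labelled libraries. JUNB made up 20.1%, 19.6% and 21.2% in the tau-labelled libraries, against 29.4%, 29.5% and 28.5% in the control-labelled libraries. The groups did not overlap for JUN or JUNB (exact two-sided permutation test, p = 0.1 each, the smallest possible). These shares add up to the whole as well, so they do not move independently. JUND held 34.4% ± 2.75 in the tau-labelled and 36.4% ± 1.34 in the control-labelled libraries (SD, n = 3 each; exact p = 0.3). Summed FOS family FPKM was 1.45 ± 0.0228 times the summed JUN family FPKM in the tau-labelled and 0.803 ± 0.118 times in the control-labelled libraries (SD, n = 3 each). Sums of both families rest on FPKM as deposited. Over 11129 genes with a mean of at least 1 FPKM, limma on log2(FPKM + 0.5) gave a median log2 fold change of 0.15. EdgeR gave 0.02 over the same genes. The sums were not rescaled for this shift, which does not touch shares or the ratio of the families within a library. Sums and shares of both families were not computed with GC content and length offsets. With those offsets JUN stood at a log2 fold change of 0.52, JUNB at -0.25 and JUND at 0.081. In bulk libraries, more cells with a gene and more RNA per cell cannot be told apart.

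**Figure D4:**
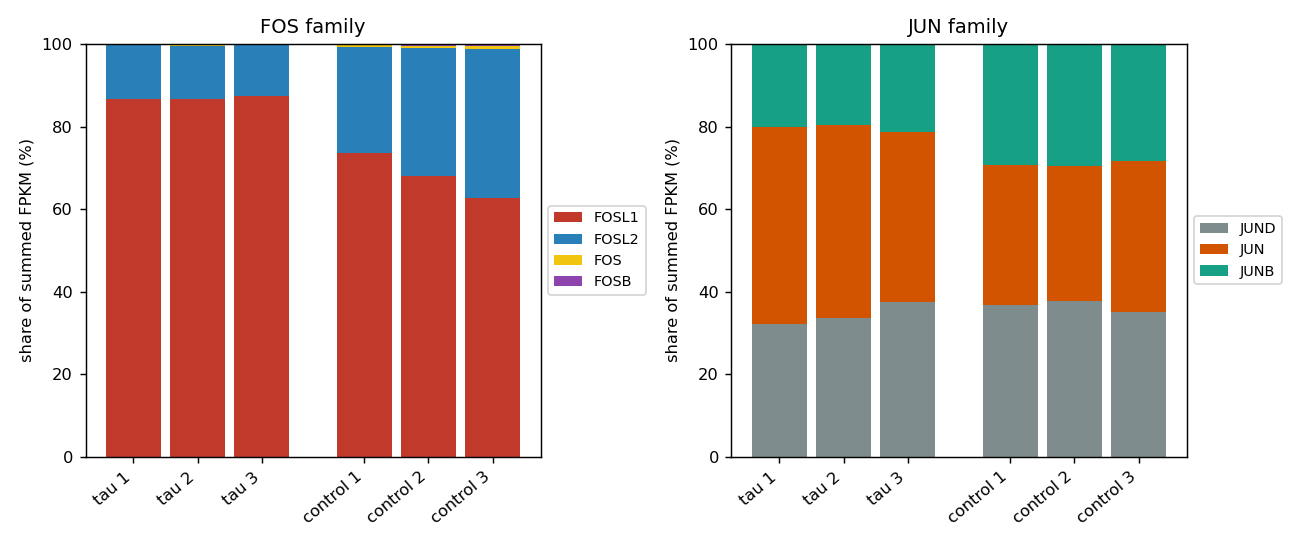
Share of each gene in the summed FPKM of the FOS family (left) and of the JUN family (right), in percent, stacked for each of the 3 tau-labelled and 3 control-labelled libraries. FOSL1 fills 86.6% to 87.3% of the tau-labelled FOS bars and 62.6% to 73.6% of the control-labelled ones, and JUN takes a larger and JUNB a smaller part of the tau-labelled JUN bars.

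EGR1, the early growth response factor, was expressed at a modest level and rose. EGR1 (ENSG00000120738, chromosome 5, 138465479 to 138469303, plus strand) had 10.8, 8.69 and 6.71 FPKM in the tau-labelled libraries, against 4.21, 5.39 and 3.10 FPKM in the control-labelled libraries. The groups did not overlap, though libraries within each group differed widely. EGR1 rose 1.89-fold (log2 fold change 0.92, SE 0.23, adjusted p = 0.00899).

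KLF6, a factor that restrains growth in several cell types, rose by a similar amount. KLF6 (ENSG00000067082, chromosome 10, 3775996 to 3785209, minus strand) had 23.4, 21.8 and 15.98 FPKM in the tau-labelled libraries, against 8.31, 10.3 and 10.8 FPKM in the control-labelled libraries. Tau-labelled library 3 was the lowest of its group and still above all control-labelled libraries. KLF6 rose 1.92-fold (log2 fold change 0.94, SE 0.15, adjusted p = 0.000835).

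IER3, which modulates cell survival and ERK signalling, fell. IER3 (ENSG00000137331, chromosome 6, 30743199 to 30744548, minus strand) had 38.7, 37.3 and 46.3 FPKM in the tau-labelled libraries, against 72.0, 95.0 and 61.8 FPKM in the control-labelled libraries. Control-labelled library 2 stood highest, and the groups did not overlap. IER3 fell 2.03-fold (log2 fold change -1.02, SE 0.17, adjusted p = 0.00139), and by 0.57 with GC content and length offsets (adjusted p = 0.00534). The antisense genes HCG20 and IER3-AS1, which overlap IER3 on the opposite strand, were at most 0.161 and 0.215 FPKM in any library.

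The 10 genes also differed among libraries of one group. Among the tau-labelled libraries, library 3 had the highest FPKM of FOSL1, FOSL2, JUNB, JUND and IER3 and the lowest of JUN, EGR1 and KLF6. Among the control-labelled libraries, EGR1 and IER3 were both highest in library 2 and lowest in library 3, while FOSL1, JUNB and JUND were highest in library 1 and lowest in library 3. By level, the tau-labelled libraries ran from FOSL1 through JUN, JUND, IER3, JUNB, FOSL2, KLF6, EGR1 and FOS down to FOSB, and the ranges of neighbouring genes overlapped for IER3 with JUNB and for JUNB with FOSL2. The control-labelled libraries ran from FOSL1 through IER3, JUND, JUN, JUNB, FOSL2, KLF6, EGR1 and FOS to FOSB, where FOSL1, IER3, JUND and FOS each overlapped with the next. JUN, JUNB, JUND and IER3 have 1 exon in their longest annotated transcript, EGR1 has 2 and the other 5 genes have 4.

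The genes with the most similar pattern over the 6 libraries were searched among 5919 protein-coding genes with a mean of at least 5 FPKM, by Euclidean distance between centred log2 CPM values. JUNB lay nearest to HM13 (distance 0.04) and CCDC51 (0.06), and FOSL2 lay near MMS19 (0.06). JUN lay nearest to ELMO2 (0.05) and SMAD3 (0.08), JUND to PMPCA (0.05) and SHPK (0.06), and KLF6 to ECPAS (0.11) and SUGP2 (0.12). FOSB lay nearest to STEAP3 (0.12) and SSBP3 (0.15), FOSL1 to CDT1 (0.18) and MAP1S (0.26), FOS to TMEM165 and MYL12A (0.20 each), and IER3 to GDF15 (0.21) and MSC (0.22). EGR1 had no close match, with MIS18A at 0.48 and PROSER1 at 0.50.

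The other genes round AP-1 were grouped in lists by their known role, to be read against the 42.7% of all genes tested that were called. The lists were chosen with earlier results of these data known, so the shares called only describe them. Limited to 11129 genes with a mean of at least 1 FPKM, edgeR called 3012 higher and 2979 lower, a larger share. Among 15 ATF, BATF, JDP2 and MAF factors, listed as possible dimer partners of FOS and JUN proteins, 4 fell, 2 rose and 9 did not pass (median log2 fold change 0.18). JDP2, a repressor that pairs with JUN proteins, had 1.09, 1.01 and 0.996 FPKM in the tau-labelled libraries, against 3.64, 3.70 and 3.33 FPKM in the control-labelled libraries, and fell 3.73-fold (adjusted p = 1.3e-05). ATF4, the main factor of the integrated stress response, averaged 57.0 ± 3.62 FPKM in the tau-labelled and 153 ± 23.6 FPKM in the control-labelled libraries (SD, n = 3 each) and fell 2.89-fold. ATF5, a relative of ATF4, averaged 30.7 ± 3.01 FPKM in the tau-labelled and 12.3 ± 0.860 FPKM in the control-labelled libraries (SD, n = 3 each) and rose 2.29-fold, and ATF7 had a log2 fold change of 0.36, a call lost without control-labelled library 2 or 3 and without tau-labelled library 1 or 2. ATF3, itself an immediate early gene, averaged 7.84 FPKM in the tau-labelled and 7.41 FPKM in the control-labelled libraries (log2 fold change -0.04, adjusted p = 0.855).

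Of 12 genes for serum response factor, its cofactors and CREB factors, 3 rose, none fell and 9 did not pass (median 0.18). CRTC1, a CREB coactivator, MRTFB, an actin-regulated partner of serum response factor, and ATF1 had log2 fold changes of 0.88, 0.65 and 0.41. With GC content and length offsets MRTFB stood at 0.32 and ATF1 at 0.080 (adjusted p = 0.478). The call of MRTFB was lost without tau-labelled library 2, and that of ATF1 without control-labelled library 1 or 2 and without tau-labelled library 2 or 3. SRF itself averaged 15.1 FPKM in the tau-labelled and 13.3 FPKM in the control-labelled libraries (log2 fold change 0.06, adjusted p = 0.751). Without tau-labelled library 2, 1 gene of this list was called, and with GC content and length offsets 6 were.

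Of 25 kinases upstream of AP-1, 7 rose, 8 fell and 10 did not pass (median -0.02). Some of these calls were of genes far below 1 FPKM. Limited to a mean of at least 1 FPKM, 10 of 20 kinases were called, 4 higher and 6 lower. Of all 11129 genes under that limit, 3012 were called higher and 2979 lower. MAPK3, which encodes ERK1, had 15.7, 13.8 and 19.3 FPKM in the tau-labelled libraries, against 32.2, 31.8 and 29.02 FPKM in the control-labelled libraries, and fell 2.07-fold (adjusted p = 0.000531). The groups did not overlap. BRAF rose by 0.86 and RPS6KA3, an ERK-activated ribosomal S6 kinase, by 0.56 on the log2 scale, while RPS6KA1, a kinase of the same family, fell by 0.96. With GC content and length offsets RPS6KA3 stood at 0.067 (adjusted p = 0.518), BRAF at 0.30 (adjusted p = 0.0377) and MAPK3 at -0.67. The call of RPS6KA3 was also lost without control-labelled library 2 and without tau-labelled library 2. MAP2K6, an activator of p38, had 0, 0.0183 and 0.0106 FPKM in the tau-labelled libraries, against 0.251, 0.238 and 0.293 FPKM in the control-labelled libraries, a low level throughout. Fewer kinases were called without control-labelled library 2 (9) and without tau-labelled library 2 (8).

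Of 33 other immediate early genes, 13 rose, 6 fell and 14 did not pass (median 0.31). PLK2, a kinase of the polo family, had 54.6, 53.1 and 42.0 FPKM in the tau-labelled libraries, against 11.6, 15.0 and 15.7 FPKM in the control-labelled libraries, and rose 3.27-fold (adjusted p = 2.3e-05). PPP1R15A, a phosphatase subunit that restores translation after stress, and MYC rose 2.27-fold and 2.197-fold. IER5L, BTG2, an antiproliferative gene, and RHOB, a small GTPase, fell with log2 fold changes of -0.94, -0.98 and -0.66. With GC content and length offsets IER5L stood at -0.58 and RHOB at -0.30 (adjusted p = 0.0537). DUSP1, a phosphatase of MAP kinases, averaged 34.4 FPKM in the tau-labelled and 36.1 FPKM in the control-labelled libraries (log2 fold change -0.19, adjusted p = 0.229), and IER2, another early response gene, averaged 37.1 FPKM in the tau-labelled and 31.3 FPKM in the control-labelled libraries (log2 fold change 0.13, adjusted p = 0.412).

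Of 15 repressors and turnover factors, 5 rose, 3 fell and 7 did not pass (median 0.24). ZFP36, ZFP36L1 and ZFP36L2 also stand among the other immediate early genes and are counted in both lists. NAB2, a corepressor of EGR factors that is itself induced by EGR1, had 9.42, 7.47 and 10.6 FPKM in the tau-labelled libraries, against 17.3, 17.0 and 15.5 FPKM in the control-labelled libraries, and fell 1.97-fold (adjusted p = 0.000908), the opposite direction to EGR1. HDAC3, a histone deacetylase, and ZFP36L1 had log2 fold changes of -0.37 and -0.44. ZFP36L2, which like ZFP36L1 speeds the decay of AU-rich mRNAs, MEN1, a partner of JUND, and FBXW7, which marks JUN for degradation, had log2 fold changes of 0.72, 0.55 and 0.67. With GC content and length offsets NAB2 stood at -0.61, HDAC3 at -0.096 (adjusted p = 0.270) and MEN1 at 0.89. The call of MEN1 was lost without control-labelled library 2, that of HDAC3 without control-labelled library 2 and without tau-labelled library 1 or 2, and that of FBXW7 without control-labelled library 1 or 2 and without tau-labelled library 1 or 2. The call of ZFP36L1, whose groups overlapped, was lost without any library but control-labelled library 3. Of the 15, 2 were called without control-labelled library 2, 3 without tau-labelled library 1, 4 without tau-labelled library 2 and 5 without tau-labelled library 3.

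Commonly cited AP-1 targets moved strongly in both directions. Of 21 tested, 8 rose, 9 fell and 4 did not pass (median 0.04), and FOSL1 is among the 8. CCND1, cyclin D1, had 188, 197 and 150 FPKM in the tau-labelled libraries, against 45.7, 46.0 and 43.8 FPKM in the control-labelled libraries. MMP3, a matrix metalloprotease, had 14.2, 15.2 and 15.4 FPKM in the tau-labelled libraries, against 4.04, 4.003 and 3.86 FPKM in the control-labelled libraries. CCND1 rose 3.63-fold and MMP3 3.46-fold, with no overlap of the groups. EGFR, the epidermal growth factor receptor, rose 2.77-fold. IL11 and IL6, related cytokines, fell 3.33-fold and 3.35-fold, and TGFB1 fell with a log2 fold change of -1.03, or -0.66 with GC content and length offsets. TIMP1, CD44 and HMOX1 had log2 fold changes of -0.04, 0.04 and 0.06 and did not pass. The choice of these genes does not say which of them any AP-1 dimer controls in U87.

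Of 12 commonly cited EGR1 targets tested, 3 rose, 5 fell and 4 did not pass (median -0.11), of which CCND1 and TGFB1 also stand among the AP-1 targets and NAB2 among the repressors. VEGFA, the angiogenic growth factor, had 16.7, 15.9 and 14.7 FPKM in the tau-labelled libraries, against 44.9, 51.0 and 49.4 FPKM in the control-labelled libraries, and fell 3.33-fold (adjusted p = 2.8e-06). F3, tissue factor, fell 3.10-fold, and THBS1, thrombospondin 1, had a log2 fold change of -1.38. ICAM1, an adhesion molecule, and FGF2 rose by 0.89 and 0.65 on the log2 scale, and FGF2 stood at 0.11 with GC content and length offsets (adjusted p = 0.448).

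**Figure D5:**
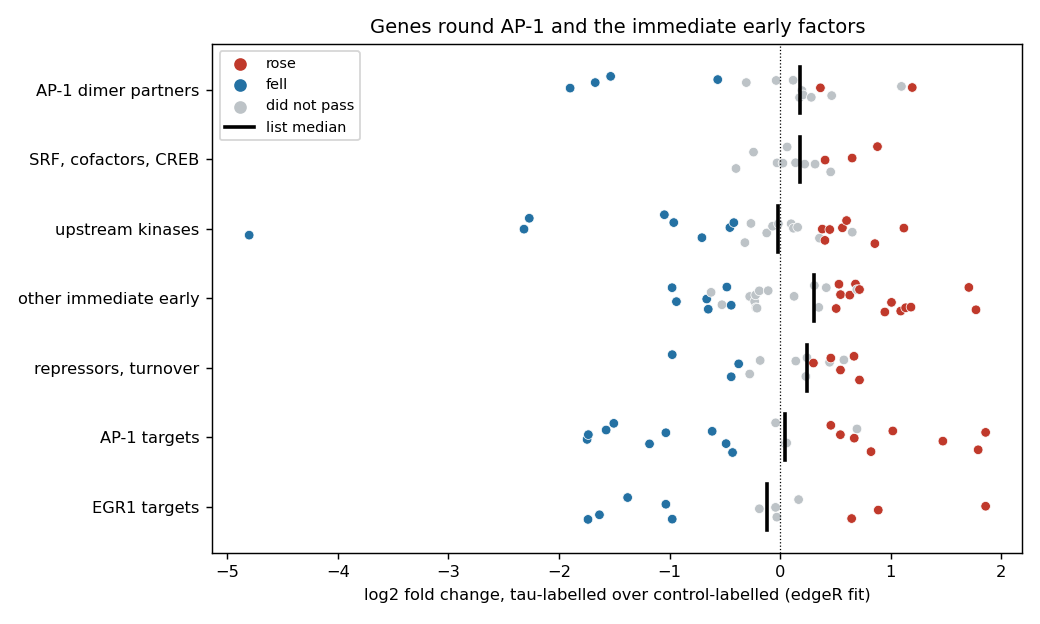
Log2 fold change, tau-labelled over control-labelled, of each tested gene (points) in 7 lists round AP-1 and the immediate early factors, coloured by whether the gene rose, fell or did not pass, with a black bar for the list median. The medians lie between -0.11 and 0.31, and the AP-1 targets spread to both sides, up to CCND1 at 1.86 and down to IL6 at -1.75.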

How the data were processed

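Libraries were grouped by their labels. The authors' deposited table gives for each gene a whole-number count and an FPKM value in every library; 0 columns were left unmapped. The submitters' processing notes name cutadapt 1.9, HISAT2 2.2.1, StringTie 2.1.6, DESeq2 and edgeR, with GRCh38. The annotation release, the counting tool and strand setting were not given in the sources used here. Values of 4 (6724) outnumber values of 1 (5596), 2 or 3, over all deposited counts. For 99.9% of ratios in 10677 genes with over 200 counts in each library, FPKM equalled the count divided by 1 length per gene and 1 factor per library, within 1%.

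Counts were tested with edgeR 4.0.16 (R 4.3.3): filterByExpr (minimum count 10, minimum total 15), TMM, glmQLFit and glmQLFTest, two-sided, group as the sole term, Benjamini-Hochberg over 17927 genes. Rose and fell mean an adjusted p below 0.05. The SE is the log2 fold change divided by the square root of F. The test was tested on counts simulated from its own fitted dispersions, which cannot show how it performs on the real libraries. Alternatives used DESeq2 1.42.0, limma 3.58.1 on log2(FPKM + 0.5) or log2(FPKM + 1) with a mean of at least 1 FPKM, other scalings and filters, a replicate block, and spline offsets for GC content and length of the longest GENCODE 29 transcript (97.9% of genes tested). The members and lists were chosen with earlier results of these data known. In each list the 3 smallest p among genes that rose and among those that fell were named by rule, apart from some items that are not reported here; ATF3, SRF, DUSP1, IER2, TIMP1, CD44 and HMOX1 were named after their values were seen. Promoters are from RefSeq, GRCh38.p14.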

Additional observations from a re-analysis of the deposited data

How the results depend on the processing

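The calls of FOSL1, EGR1, KLF6, FOSB, FOSL2, JUNB and IER3 kept their direction and passed in every alternative that held the gene, 17 each and 14 for FOSB, which is below the FPKM minimum of 3 of them. FOS passed in none of 14. MAPT was lower in all 14 that held it. JUN passed with GC content and length offsets (0.52), with those and the replicate block (0.52), with library size alone (0.35) and with limma on log2(FPKM + 0.5) (0.36) or log2(FPKM + 1) (0.35). The last 3 moved the median of all genes to 0.12, 0.15 and 0.13, and relative to it JUN stood at 0.24, 0.21 and 0.22. JUND turned to 0.081 with the offsets, alone and with the block, and ran from -0.36 to -0.16 when 1 library was left out. With the offsets alone FOSL1 stood at 1.49, EGR1 at 1.21, KLF6 at 0.83, FOSL2 at -0.51, FOSB at -1.04 and FOS at -0.11. Over 17547 genes the log2 fold change had a Spearman correlation of -0.31 with GC content and 0.19 with length. Of 11129 genes, limma with the smaller pseudocount called 3968 higher and 2270 lower, and with the larger 4009 higher and 2309 lower. EdgeR called 3822 higher and 3830 lower, and DESeq2 4038 and 3995.

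Same-numbered libraries did not deviate together (correlations -0.04, -0.01 and -0.09 over 17927 genes), and no library correlated best with its own number. Deviations were taken from the mean of only 3 libraries per group, so these correlations cannot settle whether same-numbered libraries were prepared together. With the replicate block 3181 genes rose and 3139 fell, and 3 and 4 of the 10 genes did; JUN stood at 0.24 (adjusted p = 0.197).

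The list of repressors had 8 calls as reported, 5 without the filter on low counts, 5 with the block alone and 5 with block and offsets, and 2 to 7 when 1 library was left out. The kinases had 8 to 14 calls in place of 15 and the serum response factor list 1 to 4 in place of 3 when 1 library was left out, and 6 with the offsets, alone or with the block. Of the named list genes, ZFP36L1, ATF1, HDAC3 and ATF7 lost their call in 11, 9, 8 and 7 of 17 settings, RPS6KA3 in 4, RHOB and FGF2 in 2 each, MEN1 and MRTFB in 1 each, and FBXW7 in 4 of 14. The larger pseudocount, which shrinks changes of low genes, gave -1.17 for JDP2, -1.11 for IL6, -0.87 for THBS1, -0.49 for BTG2 and 0.42 for MRTFB. From summed counts the shares differed by 27.1 points for FOSL1, -26.5 for FOSL2, -0.16 for FOS, -0.47 for FOSB and -7.56 for JUNB, against 18.7, -18.1, -0.26, -0.34 and -8.81 from FPKM, with the directions kept. The causes of these differences were not tested. FOS and FOSB rest on 93 to 252 counts per library, which limits their precision.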
